A study of Mus musculus with 19 samples.

Results

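The genes described here encode 8 lysosomal enzymes that cut sugars from larger molecules: Gusb, Naglu, Hexa, Glb1, Neu1, Man2b1, Fuca1 and Gaa. They were chosen by name, and each symbol matched 1 of the 20655 gene IDs in the count table. All 8 passed the filter on low counts, which left 18204 genes for testing, and every member was tested. None of the 8 is a sulfatase, so the set is called lysosomal glycosidases, and sulfatases appear only among the related genes. Each of 19 mice, females and males 4 months old, gave 1 bulk RNA library of its left hippocampus. All animals were hemizygous for 5xFAD (labelled 5xFADHEMI), transgenes under the neuronal Thy1 promoter that carry human mutations of familial Alzheimer's disease and give amyloid plaques early. In the 5xFAD groups, 5 females and 5 males carried these transgenes alone. In the knock-in groups, 4 females and 5 males were also homozygous for an allele of the clusterin gene that the labels write as CLUh2kbKIHO, without giving the sequence it changes. Animals without 5xFAD are not analysed here, so every difference between genotypes was seen on an amyloid background.

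Lysosomal glycosidases are made in the endoplasmic reticulum, tagged with mannose-6-phosphate and sorted to the lysosome, where each removes a particular terminal sugar. They act in sequence, so a substrate stalls where an enzyme is missing, and inherited loss of any of these 8 enzymes in humans causes a storage disease, most of which affect the brain. Beta-glucuronidase (Gusb) and alpha-N-acetylglucosaminidase (Naglu) degrade glycosaminoglycans such as heparan sulfate. The alpha subunit of beta-hexosaminidase A (Hexa) and beta-galactosidase (Glb1) trim gangliosides, the sialylated lipids of neuronal membranes. The sialidase Neu1 removes sialic acid from sugar chains. Alpha-mannosidase (Man2b1) and alpha-fucosidase (Fuca1) degrade the sugar chains of glycoproteins, and acid alpha-glucosidase (Gaa) degrades glycogen.

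Libraries held 17.3 to 25.2 M (mega) estimated counts, and members were counted 180 to 10542 times in a library. Averaged over the 19 libraries, counting error was 1.14% to 5.58% of a member's mean, against a coefficient of variation of 10.7% to 23.9%. That variation includes the differences between groups. Within 5xFAD males, Gusb had a coefficient of variation of 5.73% against a counting error of 4.81%. Levels are given as CPM, the counts for every M counts of a library, scaled by edgeR's TMM factors. The 10 hippocampal neuron markers were each counted in every library and summed to 820 to 1304 CPM. Clu itself averaged 1069 ± 214 CPM over the 9 knock-in mice and 979 ± 120 CPM over the 10 with 5xFAD alone (SD), with an edgeR adjusted p of 0.665 for the difference. The library names of the 2 genotypes fall in separate ranges, as do the numbers that close the sample titles. Genotype and any batch, of animals or of libraries, thus cannot be told apart.

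Per length of transcript, Gaa was the most abundant of the glycosidase RNAs and Naglu the least. Gaa reached 108 ± 13.3 CPM per kilobase (SD, n = 19), followed by Hexa at 44.7 ± 6.93 on the same scale. Man2b1 (21.5 ± 3.80 CPM per kilobase) and Neu1 (20.5 ± 2.19) came next and did not differ beyond their spread over libraries. Fuca1 stood at 14.7 ± 2.67 CPM per kilobase. Gusb (11.1 ± 2.14) and Glb1 (10.4 ± 2.19) formed the next pair, again within their spread, and Naglu was at 6.35 ± 1.52 CPM per kilobase. Gaa thus lay above 97.0% and Naglu above 53.5% of the 17787 tested genes with a known length. Lengths are those of the principal transcript of GENCODE M21, and the order assumes that this transcript is the one expressed. Hexa shares 255 bases of exon with Tmem202 on the opposite strand and Glb1 shares 165 with Tmppe on its own strand, so a part of those counts may belong to the neighbour. The other 6 overlap no annotated gene.

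**Figure D1:**
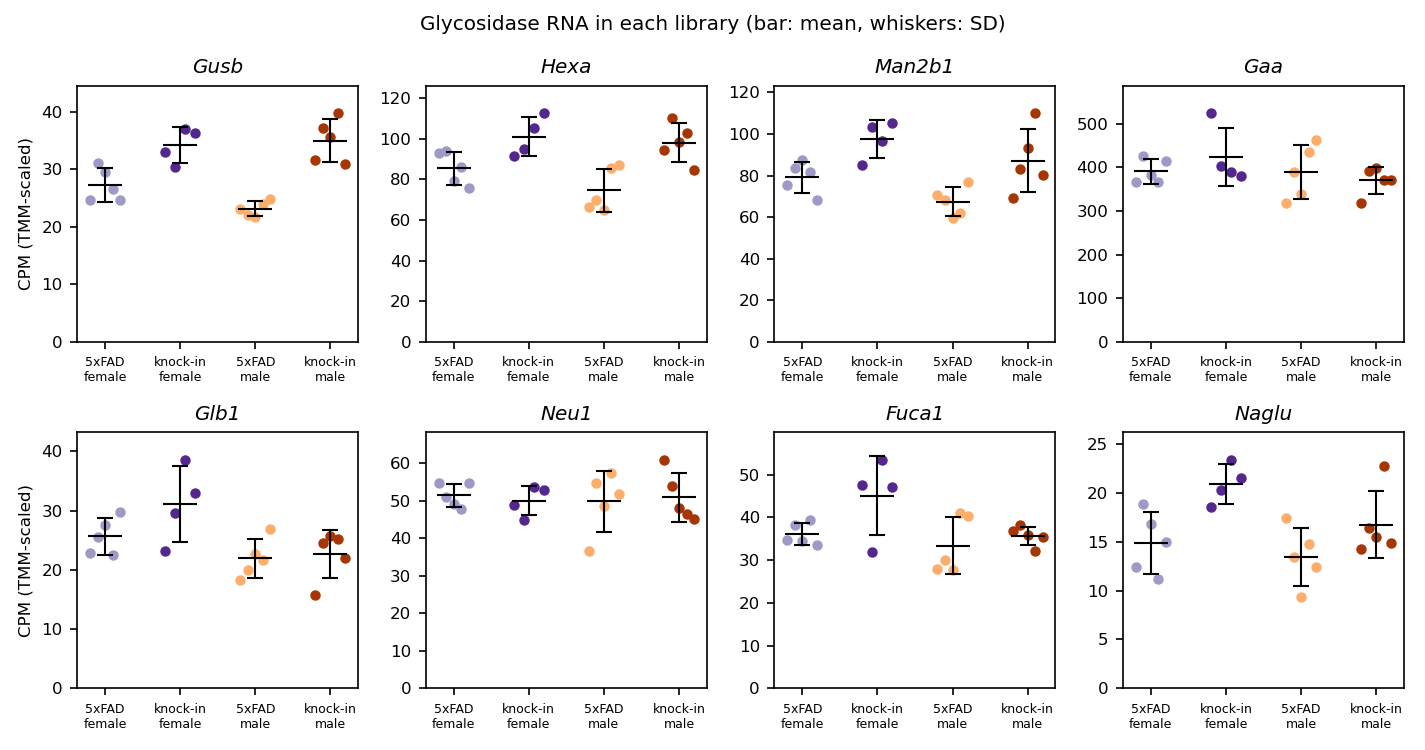
Level of each glycosidase RNA in CPM (vertical axes, from 0), with 1 point per library, the group mean as a bar and the SD as whiskers; groups are 5xFAD and knock-in females and males. The 5 knock-in males lie above the 5 5xFAD males for Gusb, from 30.9 to 39.7 against 21.6 to 24.9 CPM, while Gaa and Neu1 overlap in every comparison.

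Of the 8 genes, Gusb rose in knock-in animals over both sexes in edgeR's test, which the other 7 did not pass. DESeq2 called 3, Gusb, Hexa and Man2b1, beside 107 of all 18204 genes, and limma-voom called 1, Gusb, beside 2. Gusb was higher 1.38-fold, and Hexa, Man2b1 and Naglu were the next highest, at 1.25-fold, 1.26-fold and 1.32-fold. Values of 7 of 8 genes were above 0, with a median log2 change of 0.26, against 49.6% of all tested genes and a median of -0.00. Neu1, at -0.00, was the exception. The call of 1 of 8 genes stands beside 4 calls among 18204 genes, all of them higher (0.022% called higher, 0% lower). An unadjusted p under 0.05 was found for 5 of 8 genes and for 11.9% of all genes. Members were chosen with results of these data known, so these shares describe the set and are no test of it.

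Gusb, the beta-glucuronidase gene on chromosome 5, gave the clearest difference. In 5xFAD females its levels were 24.7, 31.2, 29.6, 26.6 and 24.6 CPM, and in knock-in females 33.0, 30.5, 37.1 and 36.4 CPM. The knock-in females numbered 1, 4 and 5 lay above all 5xFAD females, and knock-in female 2 lay below 5xFAD female 2. In 5xFAD males the levels were 23.1, 22.1, 21.6, 24.0 and 24.9 CPM, and in knock-in males 31.6, 37.2, 35.6, 39.7 and 30.9 CPM. The male groups did not overlap, a separation found for 0.527% of all tested genes with the knock-in higher and for 0.494% with it lower. Over both sexes 9 of 9 knock-in animals exceeded the 5xFAD median and 7 of 9 exceeded every 5xFAD animal, so the groups overlapped. They overlapped for each of the 8 members, while 0.00549% of tested genes lay wholly higher with the knock-in. The log2 change was 0.47 (SE 0.08, edgeR adjusted p = 0.0277), which put Gusb at rank 2 of 18204 genes by p.

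The call of Gusb depended on the analysis more than its size did. Leaving out 1 library at a time kept the log2 change between 0.45 and 0.51, with adjusted p from 0.00934 to 0.0902. The threshold was missed without knock-in females 4 or 5, knock-in males 7, 8 or 9, 5xFAD female 1, or 5xFAD males 6, 7 or 8. With the authors' normalized counts the value was 0.37 (limma adjusted p = 0.266), and without TMM factors, on library size, 0.44 (edgeR adjusted p = 0.131).

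**Figure D2:**
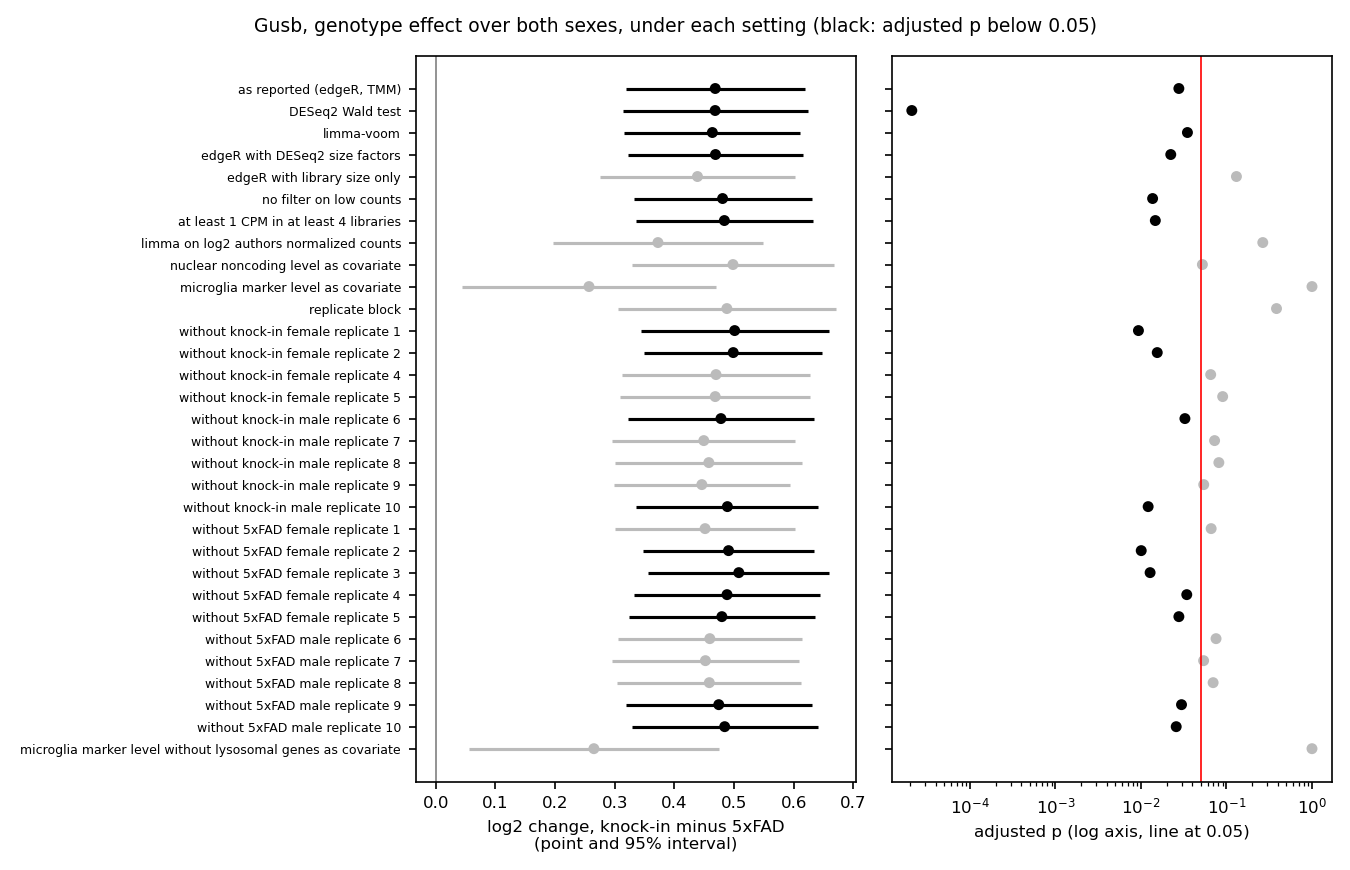
Gusb under each analysis setting, with the log2 change of knock-in minus 5xFAD over both sexes and its 95% interval on the left, and the adjusted p on a log axis on the right. Points stay between 0.26 and 0.51, above 0 in each setting shown, while the adjusted p crosses the line at 0.05 in 15 of 30 alternatives.

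Naglu, which acts on heparan sulfate like Gusb, averaged 18.6 ± 3.51 CPM over the 9 knock-in mice and 14.2 ± 2.96 CPM over the 10 others (SD). In 5xFAD females it was measured at 12.4, 18.8, 16.8, 11.1 and 15.0 CPM, and in knock-in females at 18.5, 20.3, 23.4 and 21.5 CPM. Only knock-in female 1 was below the highest 5xFAD female. In males the values were 17.4, 13.4, 9.39, 14.7 and 12.4 CPM with 5xFAD alone, and 14.3, 16.4, 15.4, 22.8 and 14.9 CPM with the knock-in. Here knock-in male 9 stood apart from the others of its group, and the remaining 4 lay within the 5xFAD range. The log2 change over both sexes was 0.40 (SE 0.12, edgeR adjusted p = 0.252).

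Hexa differed in value between genotypes, and Glb1 and the sialidase Neu1 differed less. Hexa was at 92.95, 93.8, 79.1, 86.0 and 75.8 CPM in 5xFAD females and at 91.4, 95.04, 105 and 113 CPM in knock-in females. It was at 66.3, 69.7, 64.9, 85.5 and 87.0 CPM in 5xFAD males and at 94.4, 110.2, 98.3, 103 and 84.7 CPM in knock-in males. In each sex 1 knock-in animal fell into the 5xFAD range, female 1 and male 10. The log2 change of Hexa was 0.32 (SE 0.08, edgeR adjusted p = 0.154; DESeq2 adjusted p = 0.0123), at rank 38 by p. Without 5xFAD male 10 it was 0.36 and passed (edgeR adjusted p = 0.0358). That library had the lowest mean level of 8 nuclear noncoding RNAs such as Meg3 and Malat1 in its group, 6.41 log2 CPM against 7.68 to 8.25 in the other 4. With that level as a covariate, Hexa was at 0.31 (edgeR adjusted p = 0.612).

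Glb1 ranged from 22.5 to 29.8 CPM in 5xFAD females, 23.2 to 38.5 in knock-in females, 18.3 to 26.9 in 5xFAD males and 15.8 to 25.7 in knock-in males. Its log2 change was 0.16 (SE 0.11, edgeR adjusted p = 0.591). Neu1 ranged from 47.8 to 54.7 CPM in 5xFAD females, 45.0 to 53.7 in knock-in females, 36.6 to 57.4 in 5xFAD males and 45.2 to 60.9 in knock-in males. Its log2 change was -0.00 with a 95% interval from -0.16 to 0.15 (edgeR adjusted p = 0.996). Neu1 and Glb1 proteins sit in a complex with the protective protein cathepsin A, encoded by Ctsa. Ctsa had a log2 change of 0.24 (edgeR adjusted p = 0.26).

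Of the glycoprotein enzymes, Man2b1 was at 75.2, 83.4, 87.4, 81.8 and 68.3 CPM in 5xFAD females and at 84.8, 103, 96.8 and 105 CPM in knock-in females. In males it was at 70.4, 68.1, 59.8, 62.1 and 77.0 CPM with 5xFAD alone and at 69.4, 83.3, 93.1, 109.9 and 80.4 CPM with the knock-in. Again 1 knock-in animal of each sex, female 1 and male 6, lay within the 5xFAD range. The log2 change was 0.34 (SE 0.08, edgeR adjusted p = 0.154; DESeq2 adjusted p = 0.0205), and 0.37 without 5xFAD male 10, where it passed (edgeR adjusted p = 0.0384). Fuca1 averaged 39.8 ± 7.67 CPM over the 9 knock-in mice and 34.7 ± 4.96 CPM over the 10 others (SD), and its log2 change was 0.20 (edgeR adjusted p = 0.415).

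Gaa, the glycogen enzyme, averaged 394 ± 54.5 CPM over the 9 knock-in mice and 389.96 ± 44.7 CPM over the 10 others (SD), so its means differed by less than the spread. Its log2 change was 0.02, with a 95% interval from -0.14 to 0.18 (edgeR adjusted p = 0.961). The interval leaves room for changes up to those bounds, so equal levels are not shown.

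Within females, 0 of 8 genes passed in edgeR, against 5.56% of all genes (1.13% called higher and 4.43% lower). Of those 1013 genes called, the number fell to 0 without knock-in female 2 or 4, to 364 without 5xFAD female 1 and to 439 without 5xFAD female 4. The CPM of the female groups overlapped for 8 of 8 genes, whereas 3.86% of all genes lay wholly higher and 9.03% wholly lower with the knock-in. An unadjusted p under 0.05 was found for 5 of 8 and for 22.1% of all genes. DESeq2 called 1 of 8, Gusb, and 1810 of all genes, and limma-voom called 0 of 8. In edgeR Gusb passed without 5xFAD female 3 (adjusted p = 0.0456), 5xFAD male 10 (0.0455) or knock-in male 10 (0.0437). Log2 changes ran from -0.04 for Neu1 to 0.49 for Naglu (SE 0.18, edgeR adjusted p = 0.0971), with a median of 0.29. Gusb was at 0.32 (SE 0.10, edgeR adjusted p = 0.0654), Fuca1 at 0.32 (adjusted p = 0.170), Man2b1 at 0.30 (adjusted p = 0.128), Glb1 at 0.28 (adjusted p = 0.297), Hexa at 0.24 (adjusted p = 0.195) and Gaa at 0.12 (adjusted p = 0.606). Glb1 in females was at 0.18 without knock-in female 4 and at 0.43 without knock-in female 1, and Gaa at 0.027 without knock-in female 1 and at 0.18 without 5xFAD female 5. The knock-in females also had a lower mean level of the nuclear noncoding RNAs, at 6.53 ± 0.43 log2 CPM (SD, n = 4) against 8.21 ± 0.17 (SD, n = 5). With that level as a covariate, Glb1 and Gaa in females went to -0.11 and -0.11, Hexa to 0.05, Fuca1 to 0.12, Neu1 to -0.18, Man2b1 to 0.24, Gusb to 0.22 and Naglu to 0.64.

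Within males, 0 of 8 genes passed in edgeR, and neither did any other gene (0% called). An unadjusted p under 0.05 was found for 3 of 8 and for 6.52% of all genes. DESeq2 called 1 of 8, Gusb, and 19 of all genes, and limma-voom called 0 of 8. Gusb had the lowest p of all 18204 genes in this comparison, at 0.60 on the log2 scale (SE 0.10, edgeR adjusted p = 0.0769), and 5 of 5 knock-in males lay above the highest 5xFAD male. It passed in edgeR without 5xFAD female 1 (adjusted p = 0.0424) or 5xFAD female 2 (0.0495), which enter this fit through the shared spread. Hexa followed at 0.39 (SE 0.10, adjusted p = 0.502), rank 34, and Man2b1 at 0.37 (SE 0.11, adjusted p = 0.662), rank 79. Naglu was at 0.31 (adjusted p = 0.774), Fuca1 at 0.09 (adjusted p = 0.934), Glb1 at 0.05 (adjusted p = 0.972), Neu1 at 0.03 (adjusted p = 0.974) and Gaa at -0.07 (adjusted p = 0.940). Without knock-in male 9 the male value of Naglu was 0.18. Fuca1 in males was at 0.033 without 5xFAD male 8 and at 0.17 without 5xFAD male 9.

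The difference between the sexes was tested directly as the change in females minus that in males. For 0 of 8 genes did it pass in edgeR (0.308% of all genes did, 0.0165% upward and 0.291% downward), and 0 of 8 had an unadjusted p under 0.05, against 17.7% of all genes. DESeq2 called 0 of 8 and 766 of all genes. The 56 genes called in edgeR became 0 in limma-voom and from 0 to 489 on leaving out 1 library, the most without knock-in male 7. Values ran from -0.27 for Gusb (SE 0.14, adjusted p = 0.324), the lowest p of the set, to 0.23 for Glb1. Different responses of the sexes are thus not shown for any of the 8.

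**Figure D3:**
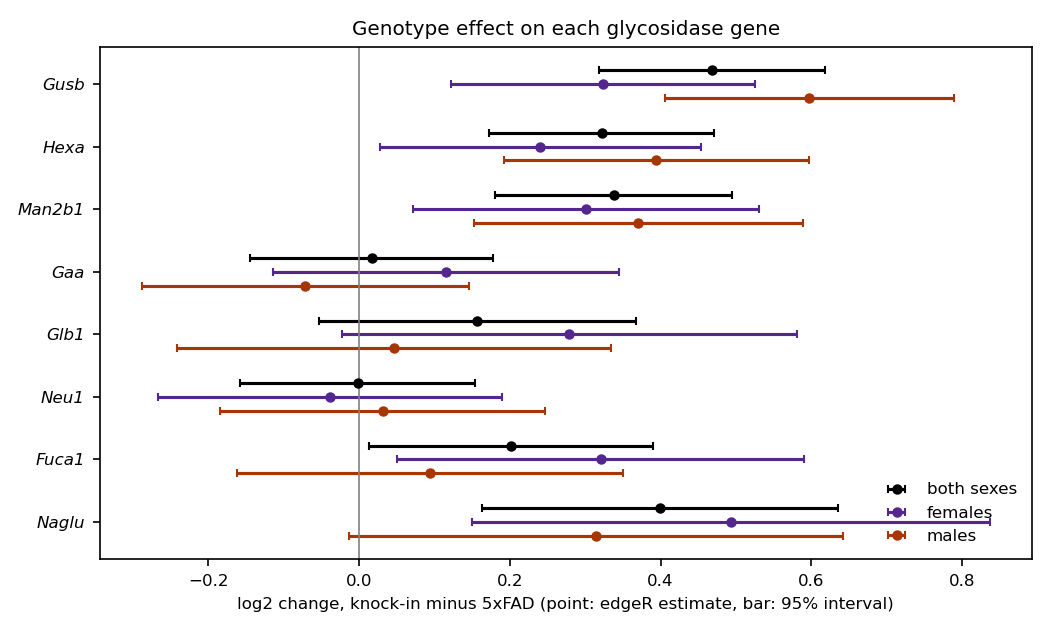
Log2 change of each glycosidase gene (knock-in minus 5xFAD, horizontal axis) over both sexes, in females and in males, as edgeR estimates with approximate 95% intervals. Gusb, Hexa and Man2b1 lie to the right of 0 in all 3 comparisons, whereas Gaa and Neu1 straddle it.

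Sex itself was compared within each genotype, as females minus males. In 5xFAD animals all 8 values were above 0 (median 0.17) and 0 of 8 passed in edgeR, against 0.0385% of all genes (0.011% higher and 0.0275% lower). An unadjusted p under 0.05 was found for 11.1% of all genes and for 2 members, Gusb (0.24, adjusted p = 0.384) and Man2b1 (0.23, adjusted p = 0.446). In knock-in animals 6 of 8 were above 0 (median 0.18) and 0 of 8 passed, against 0.0494% of all genes (0.0165% higher and 0.033% lower). The 2 with an unadjusted p under 0.05, against 14.4% of all genes, were Glb1 (0.46, adjusted p = 0.160) and Fuca1 (0.34, adjusted p = 0.250). Knock-in females also had a lower mean level of the nuclear noncoding RNAs, 6.16 to 7.08 log2 CPM against 7.12 to 8.50 in knock-in males. With that level as a covariate Glb1 was at 0.16 and Fuca1 at 0.18. The level did not overlap between these groups, so this fit can hardly tell it from sex. For sex, DESeq2 and limma-voom called 0 of 8 in either genotype. Of all 18204 genes DESeq2 called 16 in 5xFAD and 510 in knock-in animals, and limma-voom 6 and 8. DESeq2 gave no adjusted p for Gusb in 5xFAD animals (unadjusted p = 0.0189), so Gusb was not judged there. The sex comparisons share their groups with those between genotypes.

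The promoters of 4 members are shown because Gusb was the member called, while Glb1, Naglu and Gaa carry the letters CACGTG. That palindrome is the core of the element through which TFEB, a regulator of lysosomal genes, binds DNA. All 8 members matched a window from 250 bases before to 50 after the start site, taken from RefSeq on GRCm38.p6 and printed 5′ to 3′ on the gene's strand. Capitals mark CACGTG, its longer form GTCACGTG, which contains it, or GAGGAAGT, a core recognised by the myeloid factor PU.1; each was searched on both strands.
Gusb (chr5:130003000-130003299, minus strand): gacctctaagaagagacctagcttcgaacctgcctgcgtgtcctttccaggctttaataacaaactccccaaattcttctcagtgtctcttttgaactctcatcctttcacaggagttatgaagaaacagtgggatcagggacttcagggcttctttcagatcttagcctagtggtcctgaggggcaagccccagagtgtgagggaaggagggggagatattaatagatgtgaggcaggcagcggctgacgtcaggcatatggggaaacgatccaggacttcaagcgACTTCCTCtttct
Naglu (chr11:101069844-101070143, plus strand): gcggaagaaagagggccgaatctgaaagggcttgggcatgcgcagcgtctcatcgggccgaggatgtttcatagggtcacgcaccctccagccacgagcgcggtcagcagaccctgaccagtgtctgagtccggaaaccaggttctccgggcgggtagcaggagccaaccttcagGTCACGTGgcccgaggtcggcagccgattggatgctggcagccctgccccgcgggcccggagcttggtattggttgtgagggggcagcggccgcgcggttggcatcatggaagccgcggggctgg
Glb1 (chr9:114400828-114401127, plus strand): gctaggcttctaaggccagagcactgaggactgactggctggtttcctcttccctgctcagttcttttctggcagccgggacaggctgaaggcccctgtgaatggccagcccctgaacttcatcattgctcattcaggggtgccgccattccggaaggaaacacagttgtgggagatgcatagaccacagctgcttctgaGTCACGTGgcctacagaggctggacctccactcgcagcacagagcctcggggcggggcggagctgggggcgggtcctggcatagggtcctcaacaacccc
Gaa (chr11:119267713-119268012, plus strand): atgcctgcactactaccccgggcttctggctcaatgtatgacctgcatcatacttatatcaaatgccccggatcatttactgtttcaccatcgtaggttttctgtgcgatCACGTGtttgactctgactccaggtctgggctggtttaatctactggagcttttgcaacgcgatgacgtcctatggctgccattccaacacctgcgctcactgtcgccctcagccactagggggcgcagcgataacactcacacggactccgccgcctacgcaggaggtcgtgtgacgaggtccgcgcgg
CACGTG was present in 3 of 8 member windows and in 7.15% of all 32851 windows of that length. GTCACGTG was present in 2 of 8, Naglu (75 bases before the start site) and Glb1 (50 before), and in 2.25% of all windows. GAGGAAGT was present in 1 of 8, in reverse in Gusb 37 bases after the start site, and in 3.2% of all windows. The windows of Hexa, Man2b1, Neu1 and Fuca1 hold none of these letters. The 3 members with CACGTG had log2 changes of 0.40, 0.16 and 0.02, against a range of -0.00 to 0.47 over all 8.

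Other lysosomal genes were read from lists drawn up by function. The 16 other lysosomal glycosidases had a median log2 change of 0.11, with 14 above 0. Of these, 0 were called in edgeR, 4 had an unadjusted p under 0.05, DESeq2 called 2 and limma-voom 0. The mannosidase Man2b2 was at 0.29 (edgeR adjusted p = 0.148). Of 9 sulfatases and their activator, 9 were above 0 (median 0.13) and 0 were called by edgeR, DESeq2 or limma-voom (2 with an unadjusted p under 0.05), as for Arsg (0.33, adjusted p = 0.384). Cofactors and partners had a median of 0.14 over 8 genes with 7 above 0 and 0 called by these tools (3 with an unadjusted p under 0.05), among them Gm2a, the activator that presents ganglioside to Hexa (0.30, adjusted p = 0.252). The 10 cathepsins, the lysosomal proteases, had the highest median of these lists, 0.35, with 10 above 0. Of them 0 were called in edgeR or limma-voom and 8 had an unadjusted p under 0.05. DESeq2 called 2, Ctsd (0.51, edgeR adjusted p = 0.0805) and Ctsz (0.54, edgeR adjusted p = 0.148). Among 19 membrane and transport genes the median was 0.12, with 16 above 0 and 8 with an unadjusted p under 0.05. In edgeR 1 was called, Cd68 (0.73, adjusted p = 0.0382), and in limma-voom 0. DESeq2 called 4, Cd68, Npc2 (0.38, edgeR adjusted p = 0.178), Cd63 and Laptm5.

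The machinery that acidifies lysosomes, sorts enzymes to them and regulates their genes was closer to 0 over both sexes. The 19 proton pump genes had a median of 0.04 with 12 above 0, the lowest p being those of Atp6v1g1 (0.14, edgeR adjusted p = 0.660) and Atp6v0e (0.12, adjusted p = 0.682). The 11 genes of mannose-6-phosphate sorting had a median of -0.00 with 5 above 0, as M6pr, a receptor for the tag (0.15, adjusted p = 0.373), and the adaptor Gga3 (-0.19, adjusted p = 0.379). The 14 tested regulators had a median of 0.03 with 8 above 0, as the repressor Zkscan3 (-0.41, adjusted p = 0.376) and the Tfeb relative Mitf (0.33, adjusted p = 0.448). Tfeb was at 0.11 (adjusted p = 0.759). Over both sexes, edgeR, DESeq2 and limma-voom called 0 genes in each of these 3 lists, and 0, 2 and 1 had an unadjusted p under 0.05. For the proton pump the median was 0.15 in females (15 of 19 above 0) and -0.09 in males (5 of 19). The difference between the sexes had an unadjusted p under 0.05 for 6 of 19 pump genes, against 17.7% of all genes. It passed for 0 of 19 in edgeR and for Tcirg1 in DESeq2.

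In females some of these genes passed in edgeR, against 1.13% of all genes called higher and 4.43% lower. At such shares the 0 of 8 glycosidases called does not set them apart from these lists. Called higher were Gm2a (0.44, edgeR adjusted p = 0.0448), the cathepsins Ctsc (0.63, adjusted p = 0.0448), Ctsd (0.53, adjusted p = 0.0395) and Ctso (0.50, adjusted p = 0.0137), the membrane proteins Lamp1 (0.37, adjusted p = 0.0347), Lamp2 (0.63, adjusted p = 0.0322) and Cd68 (0.70, adjusted p = 0.0314), and the GTPase Rragd (0.35, adjusted p = 0.0390). Called lower was Zkscan3 (-0.996, adjusted p = 0.00984). In limma-voom 2 of the cathepsins, 3 of the membrane genes, 2 of the regulators and 0 of the cofactors passed. DESeq2 called 4 cathepsins, 6 membrane genes, 3 regulators and 3 cofactors. It also called 2 other glycosidases, 1 sulfatase and 1 sorting gene, beside 1810 of all genes. The edgeR calls rest on few libraries, since 0 of all genes were called in females without knock-in female 2 or without knock-in female 4. The difference between the sexes did not pass in edgeR for Zkscan3 (-1.09, adjusted p = 0.0537), Rragd (0.55, adjusted p = 0.0673), Ctso (0.55, adjusted p = 0.0781) or Lamp2 (0.61, adjusted p = 0.174). DESeq2 called that difference for Zkscan3, Rragd and Ctso, and in these lists also for Flcn, Idua and Tcirg1, beside 766 of all genes. Limma-voom called it for 0 genes. Here too the lower noncoding RNA level of knock-in females stands beside the result. With that level as a covariate edgeR called 0 of all 18204 genes in females. That level did not overlap between the female genotypes, so this fit can hardly tell them apart and the loss of calls decides nothing. In males 0 genes of these 8 lists passed in edgeR or limma-voom, and DESeq2 called 1, the cathepsin Ctsz.

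**Figure D4:**
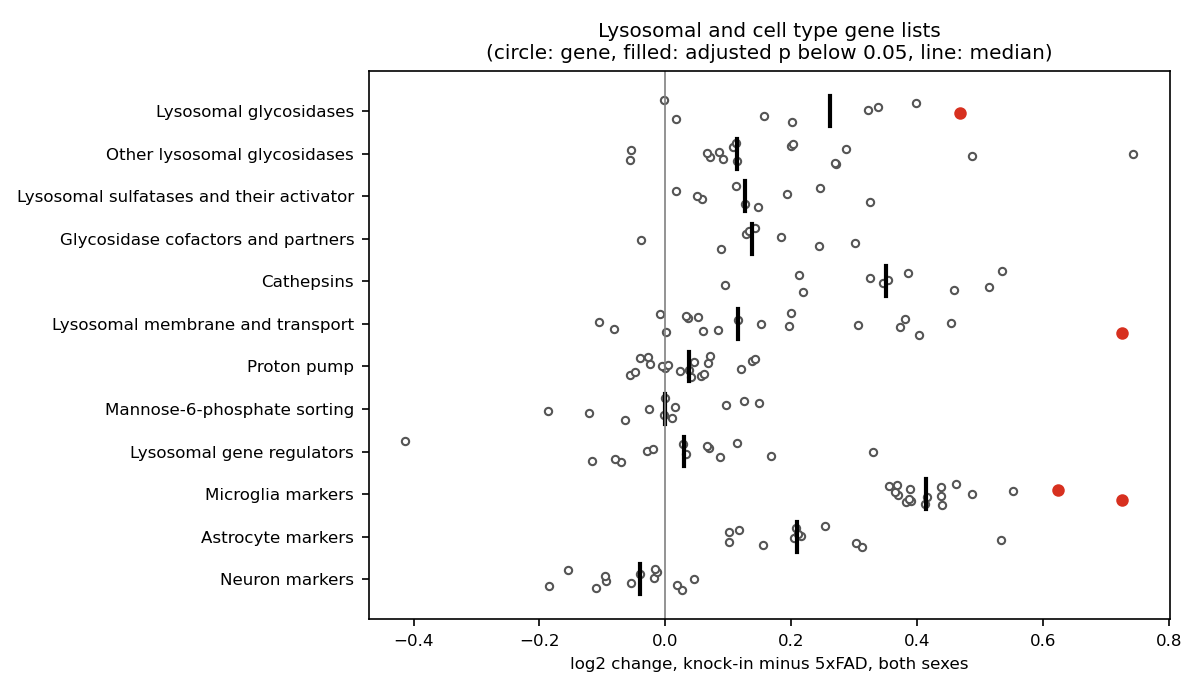
Log2 change of knock-in minus 5xFAD over both sexes (horizontal axis) for each gene of the lysosomal lists and of 3 cell type lists; filled circles passed the threshold and lines are medians. Glycosidases (median 0.26), cathepsins (0.35) and microglia markers (0.41) lie furthest to the right, and the proton pump (0.04) and sorting genes (-0.00) sit near 0.

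Markers of microglia, the phagocytes of brain, were also higher in value with the knock-in. Of 18 microglia markers 18 were above 0 in the genotype comparison (median 0.41), all 18 with an unadjusted p under 0.05. EdgeR called 2 of them, Cd68 and Olfml3, DESeq2 called 9 and limma-voom 0. Their summed level was 1033 to 1756 CPM in knock-in and 799 to 1263 CPM in 5xFAD animals, and 0 of the 18 had a count of 0 in any library. Astrocyte markers were above 0 for 12 of 12 (median 0.21) and neuron markers for 3 of 13 (median -0.04), with 0 called in each by edgeR (8 and 0 with an unadjusted p under 0.05; DESeq2 called 1 and 0). Oligodendrocyte and endothelial markers were above 0 for 10 of 10 each (medians 0.19 and 0.16), with 0 called by edgeR or DESeq2 (2 and 3 with an unadjusted p under 0.05). Also higher in value were those of blood, choroid plexus and meninges: erythrocyte markers were above 0 for 5 of 5 (median 0.64), choroid plexus markers for 10 of 10 (median 0.93) and leptomeningeal markers for 8 of 8 (median 0.54). In these 3 lists edgeR called 0 over both sexes, and DESeq2 called 2, 0 and 0. The unadjusted p was under 0.05 for 5, 0 and 4 genes. Their summed levels overlapped between genotypes, for choroid plexus from 34.1 to 11641 CPM with the knock-in and from 71.0 to 5384 CPM without it, and the part of these tissues in the result was not tested. Within females edgeR called 3 of 5 erythrocyte markers (median 1.01), 3 of 12 astrocyte markers and 2 of 18 microglia markers, against 5.56% of all genes. It called 0 in the other cell type lists there, and 0 in each list in males. DESeq2 called 5, 6 and 7 of those 3 lists in females and 2 of 8 leptomeningeal markers, against 1810 of all genes. Summed erythrocyte markers were at 192 to 355 CPM in knock-in and 100 to 159 CPM in 5xFAD females. In bulk RNA, a change in the number of cells of a type and a change in RNA per cell cannot be told apart. With the mean microglia marker level as a covariate, the log2 change of Gusb was 0.26 (SE 0.11, unadjusted p = 0.0269, edgeR adjusted p = 1.00). On the same footing Hexa was at 0.04, Man2b1 at 0.10, Naglu at 0.11, Glb1 at -0.03 and Gaa at 0.05. With the 16 markers that are in none of the lysosomal lists, Gusb was at 0.27 (SE 0.11). The marker level itself averaged 5.76 ± 0.23 log2 CPM over the 9 knock-in mice and 5.33 ± 0.18 over the 10 others (SD), so the covariate and genotype share part of their variation.

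**Figure D5:**
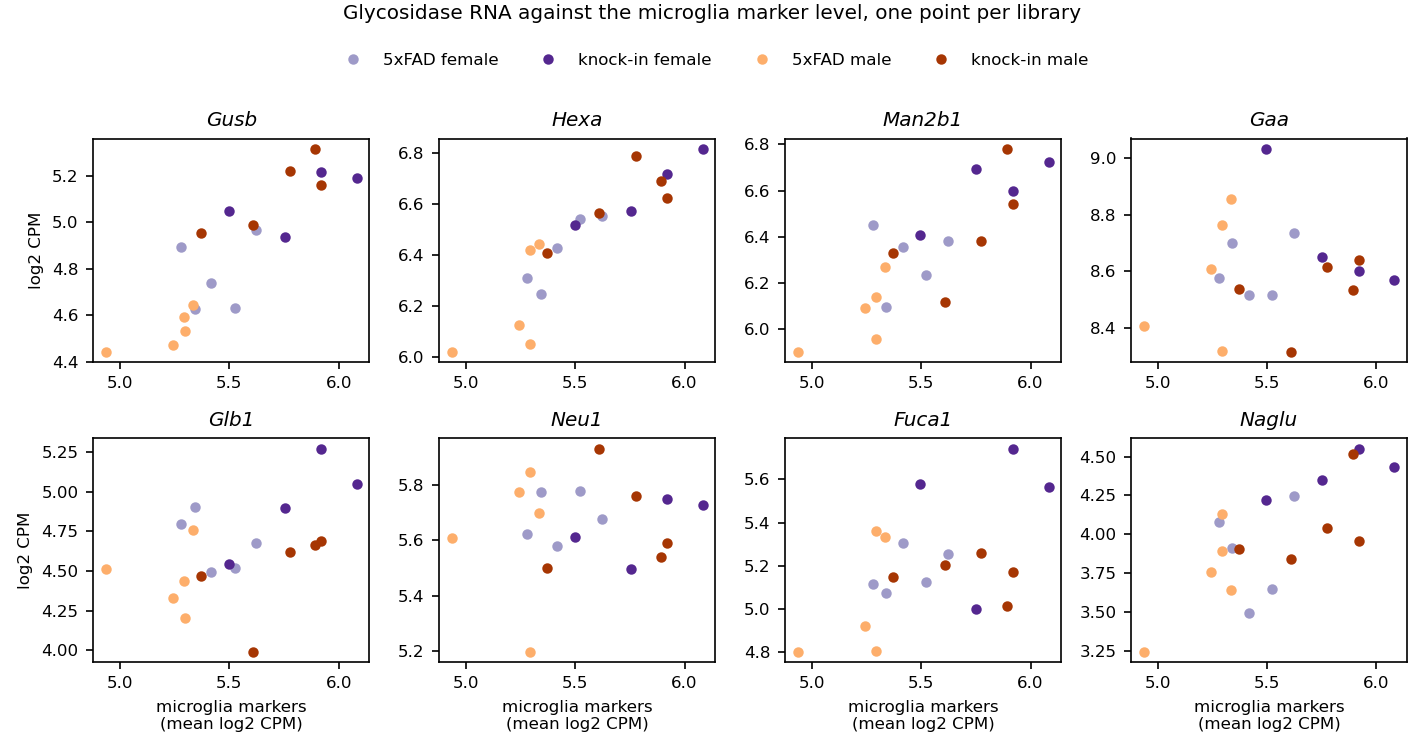
Log2 CPM of each glycosidase gene (vertical axes) against the mean log2 CPM of 18 microglia markers (horizontal axes), with 1 point per library coloured by group. Gusb, Hexa and Man2b1 rise with the marker level, whereas Gaa and Neu1 show no such order.

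The 8 genes did not vary as a single block. After the mean of each group was removed, the 28 pairs had Pearson correlations over the 19 libraries with a median of 0.28, from -0.42 (Man2b1 with Neu1) to 0.65 (Gusb with Man2b1). Among the 5000 most abundant protein-coding genes the median pair was at 0.04. These are descriptions over libraries that share preparation and composition. Against the microglia marker level, Hexa had a correlation of 0.75, Gusb 0.62, Man2b1 0.59 and Naglu 0.50, while Neu1 was at 0.12 and Gaa at -0.02. Against astrocyte markers, Gusb was at 0.45, Man2b1 at 0.41, Naglu at 0.41 and Hexa at 0.39. Oligodendrocyte markers gave 0.54 for Gusb, 0.44 for Man2b1, 0.31 for Naglu and 0.15 for Hexa. Glb1 was at 0.55 against endothelial and mural markers and at 0.38 against microglia markers. These correlations are thus not particular to microglia for every member. Against neuron markers, Neu1 was at 0.50 and Naglu at -0.65.

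The genes most like each member over the 19 libraries were named by the same measure among 13066 protein-coding genes. For Gusb these were Anxa5 (0.82), Retsat (0.82) and Tmed10 (0.82). Hexa was closest to Cd52 (0.88), Ncl (0.86) and Thy1 (0.84), and Man2b1 to Slc11a1 (0.86), Tnfsf13b (0.86) and Trim36 (0.83). Naglu was closest to Gstt3 (0.83), Cd9 (0.82) and B4galt1 (0.82). Gaa was closest to Cpne2 (0.94), Wdr6 (0.92) and Zcchc12 (0.87), and Neu1 to Ybx1 (0.93), Phyhip (0.93) and Rnf166 (0.92). Fuca1 was closest to Galk2 (0.92), Rhoc (0.90) and Tmem86a (0.89), and Glb1 to Clptm1 (0.83), Crtap (0.82) and Pcbp3 (0.81). No member was among the 3 closest genes of another. Picked as the highest of 13066 values over 19 libraries, such correlations can be high without any relation between the genes.

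Genes beside each member on its chromosome were read as well. Of the 10 tested genes nearest to Gusb, 5 on each side, 0 were called in edgeR and 1 had an unadjusted p under 0.05. Their log2 changes ran from -0.74 to 0.40, with a median of 0.02. For each of the other 7 members, 0 of 10 neighbours were called as well. Clu lies on chromosome 14, and the members lie on chromosomes 4, 5, 8, 9, 11 and 17.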

How the data were processed

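Estimated counts per gene were deposited by the authors as whole numbers, 1 column per library. Salmon, DESeq2, FastQC, Seurat and build mm39 are named, per the submitters' processing notes, without versions or roles. The authors also deposited normalized counts, a signal scaled by factors that differ between genes and libraries, used here as an alternative. Variance-stabilized values on the log2 scale were deposited too and entered no test. For Gusb, a normalized count of 531 went with 9.30 in 5xFAD female 1, and 532 with 9.39 in 5xFAD male 6. Whether normalized counts share a scale between the sexes is thus not known, which limits that alternative for sex and the interaction. Columns were matched to samples by library name.

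Symbols, transcript lengths and gene order came from GENCODE M21 on GRCm38, another build than the authors', so only chromosomes and order are given for genes. Whether counts keep strand is not given in the sources used here.

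Genes were filtered with filterByExpr (minimum 10 counts, 4 groups) and tested in R 4.3.3 by edgeR 4.0.16 (TMM, quasi-likelihood F-test), with Benjamini-Hochberg adjustment over 18204 genes and a threshold of 0.05. The effect over both sexes had sex as a covariate; the others came from a model with 4 group means. Intervals of 95% are the estimate ± 1.96 SE. Log2 CPM used a prior count of 2. The script was tested on simulated data. Each library is 1 animal; all 36 same-group pairs exceeded counting noise (chi-square per gene at least 8.95), and 19 of 19 libraries matched their labelled sex by Xist and Ddx3y.

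Members and lists were chosen with earlier results of these data known. Named are the 8 members, the 2 genes of lowest p in each lysosomal list, the 3 protein-coding genes most like each member (mean of at least 1 log2 CPM), and 5 neighbours on each side as counts. Some genes the rule picks are not reported here. Tfeb, Olfml3, Cd63, Laptm5 and the genes named for a single sex fall outside this rule and were named after their values were seen. Alternatives were DESeq2 1.42.0, limma 3.58.1 (voom, and log2 of normalized counts + 1), other scalings and filters, covariates, only the groups compared, a replicate block and leaving out each library; the microglia covariate without lysosomal genes was added after seeing the data.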

Additional observations from a re-analysis of the deposited data

Results flagged for a closer look

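Each of the 4 groups was examined for a library far from the others in each of the 8 genes, 32 checks in all, of which chance alone would pick about 1 in 20. Dixon's criterion picked out 2. Gaa in knock-in female 1 stood at 523 CPM, against 380 to 402 CPM in the other 3 knock-in females (gap over range 0.843). Without that library the log2 change of Gaa over both sexes went from 0.02 to -0.03, neither past the threshold. Naglu in knock-in male 9 stood at 22.8 CPM, against 14.3 to 16.4 CPM in the other 4 knock-in males (gap over range 0.754). Without it the male log2 change of Naglu went from 0.31 to 0.18, neither past the threshold.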

How the results depend on the processing

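Over both sexes 1 of 8 members passed in the analysis as reported. The count was 3 with DESeq2, 0 with library size only, with normalized counts, with the noncoding level, with either microglia level and with the replicate block, and 0 to 3 on leaving out each library. All genes called ran from 0 to 127, the latter without 5xFAD male 10 (58 higher, 69 lower), and DESeq2 called 94 higher and 13 lower. All genes called in females ran from 0 (without knock-in female 2 or 4, with the noncoding or microglia level, or with the replicate block) to 1810 (DESeq2). In females the count of 0 became 1 with DESeq2, without a filter and with the stricter filter (1 CPM in at least 4 libraries), and 0 to 1 leaving out a library. In males it became 1 with DESeq2 and with library size only, and 0 to 1 leaving out a library. The counts for the interaction and for sex stayed at 0 in 30 of 30 alternatives each. The same title number did not pair animals (correlations of deviations from -0.20 to 0.12 over 9 pairs, 1 best with its own number); under the replicate block Gusb was at 0.49 (edgeR adjusted p = 0.385). The block was not run for sex, since the sexes share no number.

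Several values that did not pass the test changed sign. Over both sexes Neu1 went from -0.00 to 0.000863 (voom), 0.0097 (no filter), 0.012 (stricter filter) and 0.038 (normalized counts), and -0.050 to 0.031 leaving out a library. Gaa went to -0.00994 (library size only), -0.066 (noncoding level) and -0.029 to 0.068 leaving out a library, and Glb1 to -0.032 (microglia level). In females Neu1 went to 0.15 (normalized counts) and -0.066 to 0.027 leaving out a library, while Gaa and Glb1 went to -0.11 and -0.11 (noncoding level). In males Glb1 went to -0.029 and Neu1 to -0.061 with normalized counts, and -0.010 to 0.15 and -0.061 to 0.078 leaving out a library. With the microglia level, and then without its lysosomal genes, male values were -0.19 and -0.16 for Glb1, -0.022 and -0.028 for Neu1, -0.038 and -0.070 for Fuca1, and -0.039 and -0.013 for Naglu. The largest of these moves were those of Naglu in males (reported 0.31) and Glb1 in females (reported 0.28). The cause was not tested. Gusb, Hexa and Man2b1 kept a value above 0 in each alternative of the 3 genotype comparisons. With the microglia level, however, Hexa was at 0.0077 in females (SE 0.11) and 0.092 in males (SE 0.12). Man2b1 was then at 0.095 in females (SE 0.13) and 0.10 in males (SE 0.14), so these values cannot be told from 0. Gusb passed in 15 of 30 over both sexes. Counting error was smaller than the spread between animals in each group, but for Gusb in 5xFAD males it came close (4.81% against 5.73%).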
